A study of Homo sapiens with 6 samples.

Results

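The translation initiation and elongation factors are the proteins that bring the ribosome to a messenger RNA, find the start codon and then feed the ribosome with aminoacyl-tRNAs. They were taken from the deposited table by name: protein-coding genes whose symbol begins with EIF1 to EIF6 or with EEF1 or EEF2, without the EIF2AK kinases. The rule found 62 genes of the 18969 in the table, and no measured value entered it. The symbols fall into 8 roles: 6 genes of scanning and start codon recognition, 11 of eIF2 and its exchange factor eIF2B, 14 of eIF3, 11 of cap binding and unwinding (eIF4), 3 of proteins that bind eIF4E, 4 of eIF5A and eIF6, 6 elongation factors and 7 enzymes that modify elongation factors.

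Messenger RNA was sequenced from HK-2 cells, an immortalised line from the human kidney proximal tubule, all of which had received 20 µM cisplatin, a platinum drug that injures this cell type. In 3 libraries the labels give overexpression of Nfe2l1, and in 3 they give wild type (control). NFE2L1 encodes the transcription factor also called Nrf1, and the title of the series concerns its part in ferroptosis of cisplatin-injured tubule cells. No library without cisplatin entered the comparison. Neither how the overexpression was made nor whether the libraries of a group came from separate cultures is given in the sources used here, and the p-values reflect only how these 6 libraries vary, part of which could be technical.

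In eukaryotes the ternary complex of eIF2, GTP and initiator tRNA joins the small ribosomal subunit with eIF1, eIF1A, eIF5 and the large scaffold eIF3. eIF4F, made of the cap-binding protein eIF4E, the scaffold eIF4G and the helicase eIF4A, brings that subunit to the mRNA cap, and the 4E-BP proteins compete with eIF4G for eIF4E unless mTORC1 phosphorylates them. Elongation runs through eEF1A, which delivers aminoacyl-tRNA, its exchange factor eEF1B, and eEF2, which moves the ribosome along. Many genes of this group have mRNAs that open with a 5′ terminal oligopyrimidine (TOP) tract, a C followed by a run of C and T, through which mTORC1 and LARP1 control their translation.

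Total counts ranged from 16865460 to 23458333 in the overexpression libraries, against 19821519 to 22365895 in control libraries. NFE2L1 itself had 244.7, 744.0 and 339.5 CPM (reads of the gene relative to the TMM-scaled size of the library) in overexpression libraries 1, 2 and 3, against 234.2, 253.4 and 246.2 CPM in control libraries. Overexpression library 1 therefore lay within the range of the control libraries, and the difference did not pass the test (log2 fold change 0.86 ± 0.35 SE, edgeR quasi-likelihood test, adjusted p = 0.115, n = 3 each). The expression "overexpression libraries" below stands for the libraries so labelled, and values without library 1 are given beside the genes that passed. Of 16 listed tubule and epithelial markers 12 were in the table and 8 were tested, with KRT8, KRT18, PAX8, CDH2 and DPP4 among those detected, whereas AQP1, SLC34A1, SLC5A2 and PAX2 averaged 0.137 FPKM or less. GGT1 was tested but averaged only 0.356 FPKM, and LRP2, CUBN, ANPEP and CDH1 were not in the table. Of 10 markers of other kidney and blood cells 3 were in the table, and the highest, COL1A1, averaged 1.36 FPKM. Of the 8 tested tubule and epithelial markers KRT18 rose (0.62, edgeR adjusted p = 0.0207) and DPP4 fell (-1.04, adjusted p = 0.029). Without overexpression library 1 these were 0.63 (adjusted p = 0.0375) and -1.08 (adjusted p = 0.0389). In the length and GC fit, described below, neither passed. KRT18 stood there at 0.086 (adjusted p = 0.789) and DPP4 at -0.76 (adjusted p = 0.144). The part of these markers in the results below was not tested.

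The starts of the genes show the TOP tract directly. RefSeq start windows (GRCh38.p14) were matched for 48 of the 62 genes, with 65 annotated starts. The first set is shown because these genes carry the tract: each line gives 20 bases before and 15 bases from the annotated start, 5′ to 3′ on the gene's strand, and capitals mark the run of C and T that begins with C at the start.
EEF1A1, chr6:73521018-73521052, minus strand: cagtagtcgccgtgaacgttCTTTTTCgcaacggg
EEF2, chr19:3985449-3985483, minus strand: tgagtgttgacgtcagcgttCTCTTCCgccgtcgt
EEF1B2, chr2:206159875-206159909, plus strand: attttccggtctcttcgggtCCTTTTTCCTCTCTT
EIF3F, chr11:7987317-7987351, plus strand: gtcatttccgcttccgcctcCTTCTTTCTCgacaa
EIF3K, chr19:38619168-38619202, plus strand: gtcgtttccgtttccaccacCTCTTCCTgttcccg
EIF3M, chr11:32583811-32583845, plus strand: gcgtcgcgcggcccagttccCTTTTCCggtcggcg
EIF4A2, chr3:186783557-186783591, plus strand: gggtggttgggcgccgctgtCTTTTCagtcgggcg
EIF2S3, chrX:24054936-24054970, plus strand: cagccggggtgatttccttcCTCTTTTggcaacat
EIF2S3B, chr12:10505870-10505904, plus strand: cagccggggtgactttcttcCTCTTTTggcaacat
The run of EEF1B2 continues past the window, and the last pair shows how close EIF2S3B, a near copy on another chromosome, is to EIF2S3. A contrasting set without a tract of this kind at the annotated start holds a gene that rose and a pair that fell.
EIF3I, chr1:32222387-32222421, plus strand: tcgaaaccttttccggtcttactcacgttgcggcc
EIF4E, chr4:98929119-98929153, minus strand: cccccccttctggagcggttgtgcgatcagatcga
EIF5A2, chr3:170908623-170908657, minus strand: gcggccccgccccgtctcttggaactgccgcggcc

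A start with C followed by at least 4 further pyrimidines was annotated for 13 of the 48 matched factors (27.1%), against 5.14% of the 27305 genes of the RefSeq table. Per start, 20.0% of those of the factors and 4.07% of all starts had it. The genes of the RefSeq table were not limited to expressed or protein-coding ones. These 13 genes did not move as a block. EIF3K, EIF3F and EEF1B2 rose and EIF4A2 and EIF2S3B fell, while EEF1A1, EEF2, EIF2A, EIF2D, EIF2S3, EIF3D, EIF3M and EIF4B did not pass the test. Their median log2 fold change was 0.17, and that of the 35 matched genes without such a start was 0.13, of which 6 rose and 3 fell.

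Of the 62 factors, all of which passed the filter on low counts, 13 rose and 6 fell in overexpression libraries relative to control libraries at an adjusted p under 0.05 (edgeR quasi-likelihood test, Benjamini-Hochberg over 15046 genes). That is 21.0% and 9.68% of the factors, beside 9.62% and 9.49% of all genes tested. The share that rose was above the background and the share that fell was close to it. The median log2 fold change was 0.22 over the factors and 0.03 over all genes. Without overexpression library 2 these medians were 0.047 and 0.001, and in the other leave-outs that of the factors lay between 0.164 and 0.261. The factors' median deviation from the control mean (log2 CPM) was 0.08, 0.266 and 0.095 in overexpression libraries 1, 2 and 3. In 21 factors (33.9%) every overexpression library lay above every control library, beside 21.8% of all genes, and in 12 (19.4%) every overexpression library lay below, beside 20.9% of all genes. In these bulk libraries, fewer cells of a type and less RNA per cell cannot be told apart.

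**Figure D1:**
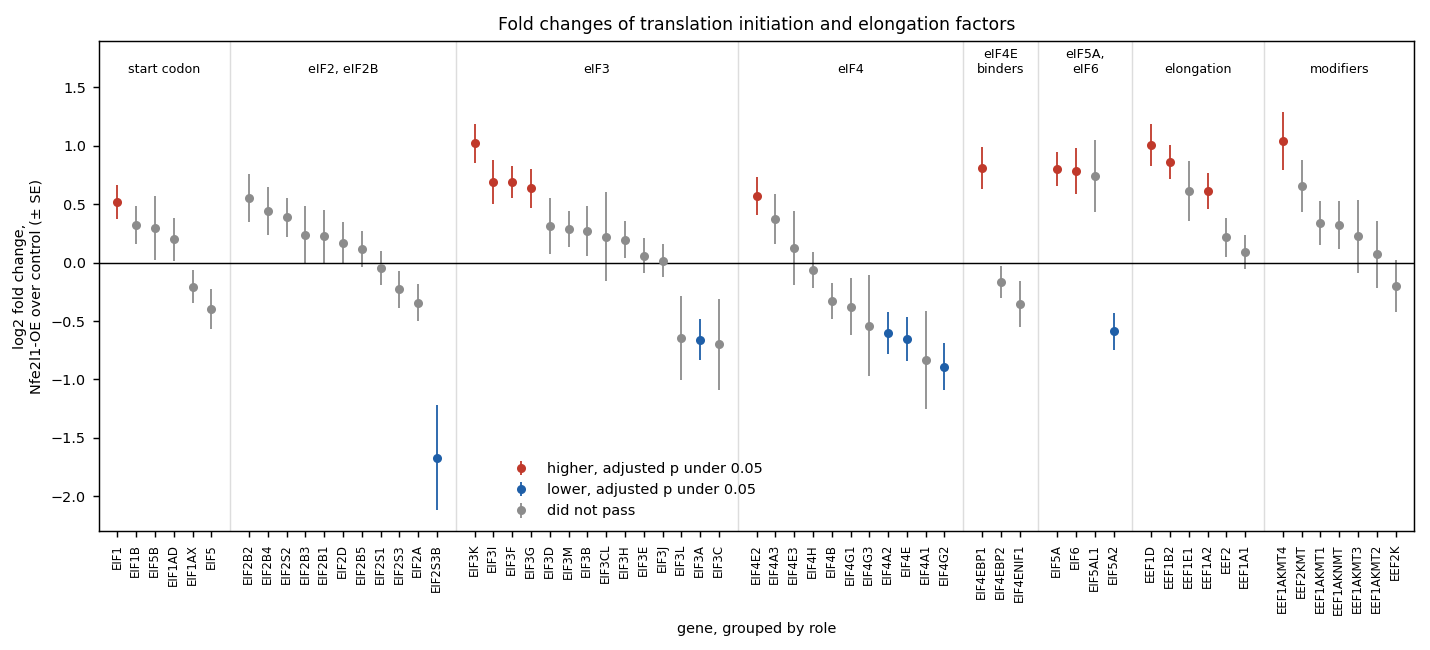
Log2 fold changes of the 62 factors (vertical axis, overexpression over control, with SE), grouped by role along the horizontal axis and coloured by whether the adjusted p was under 0.05. The 6 elongation factors lie above 0, and 3 of them rose, whereas 3 of the 11 eIF4 genes fell.

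Leaving out overexpression library 1 left 9 factors higher and 3 lower (14.5% and 4.84%, beside 8.18% and 8.57% of all genes). Without control library 1 or without control library 2 edgeR called no factor, and 1 and 0 genes of the whole table, although 19 factors had an unadjusted p under 0.05 each time, with 3962 and 3863 of all genes. Without overexpression library 3, 10 were higher and 1 lower (16.1% and 1.61%, beside 5.70% and 4.37% of all genes), and EIF1, EIF3A, EIF3G, EIF4A2, EIF4E, EIF4E2, EIF4G2 and EIF5A2 no longer passed. Without control library 3, 5 were higher and 1 lower (8.06% and 1.61%, beside 4.39% and 4.49% of all genes), and EEF1B2, EEF1D, EIF3F, EIF3K, EIF5A and EIF3A were the 6 that still passed. Without overexpression library 2, 15 were higher and 9 lower (24.2% and 14.5%, beside 11.5% and 12.2% of all genes), with EIF2S3B lost. Over these leave-outs the log2 fold change stayed between 0.80 and 0.96 for EEF1B2, 0.82 and 1.15 for EEF1D, 0.62 and 0.74 for EIF3F and 0.71 and 0.87 for EIF5A, and between -1.12 and -0.72 for EIF4G2, -0.77 and -0.51 for EIF3A and -0.75 and -0.50 for EIF4E.

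Gene length went with the direction of change. The 13 factors that rose had a median length of 1.1 kb (0.772 to 6.92 kb), the 6 that fell 3.11 kb, and the other 43 a median of 3.1 kb. Of the 21 shortest factors 10 rose and 2 fell, of the 21 of middle length 2 rose and 1 fell, and of the 20 longest 1 rose and 3 fell. Across the 62 factors the Spearman correlation of the log2 fold change with length was -0.51 and with GC content 0.43, and across all 15046 genes these were -0.54 and 0.55. Such correlations across genes of the same libraries are descriptions.

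A fit with an offset per library for length and GC content was therefore run as well, and is called the length and GC fit below. In it 3 factors passed, all higher (4.84% of the factors, beside 1.06% of all genes), and none was lower (beside 0.552% of all genes lower). These 3, EIF3F, EIF3H and EIF3M, are all subunits of eIF3, and EIF3F was the only factor called in both fits. By that fit 20 factors had an unadjusted p under 0.05.

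**Figure D2:**
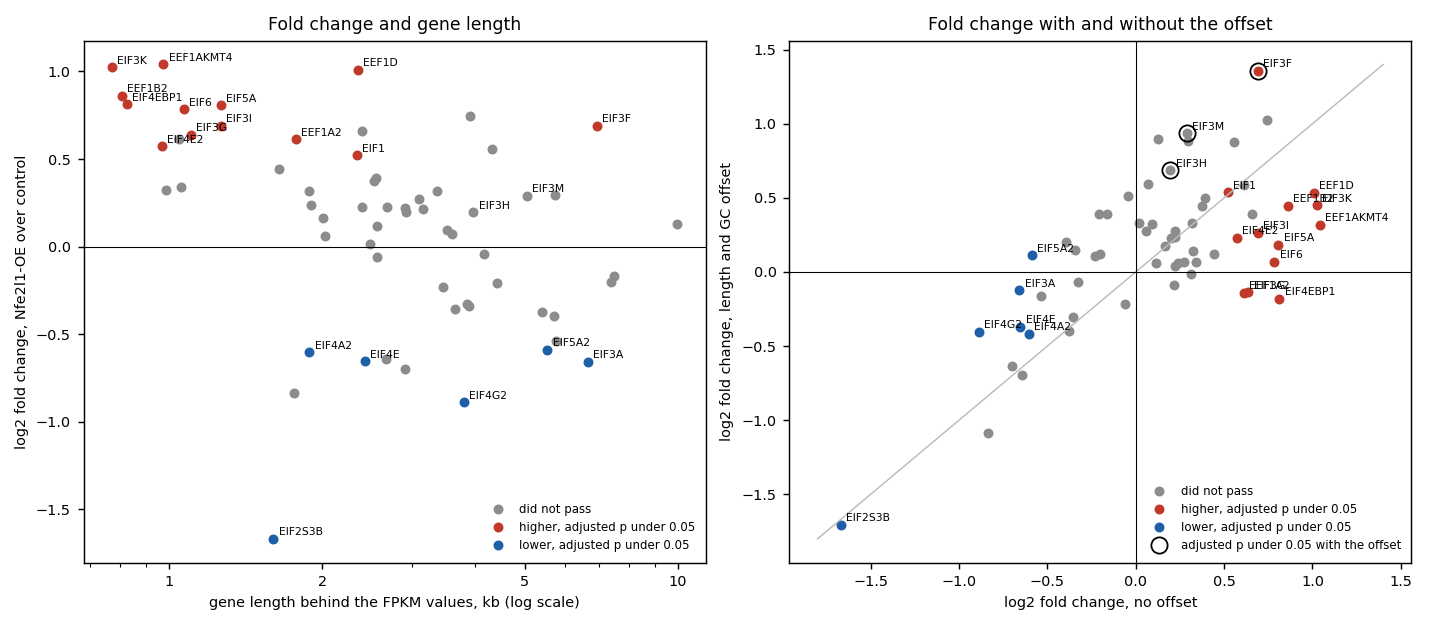
Left, log2 fold change of the 62 factors (overexpression over control) against gene length in kb on a log axis; right, the log2 fold change with the length and GC offset against that without it, with the grey line marking equality. Most of the factors that rose lie at the short end at left and below the line at right, and circles mark EIF3F, EIF3H and EIF3M.

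Among the factors of scanning and start codon recognition, EIF1 rose and the other 5 did not pass the test. eIF1 keeps the scanning ribosome open until a start codon is paired. EIF1 had 855.5, 1004 and 788.9 CPM in overexpression libraries, against 594.3, 593.0 and 656.6 CPM in control libraries. All 3 overexpression libraries were above all 3 control libraries (log2 fold change 0.52 ± 0.15 SE, edgeR adjusted p = 0.0378). Without overexpression library 1 the value was 0.54 (adjusted p = 0.0569), over the 6 leave-outs it ranged from 0.41 to 0.59, and the call held only without overexpression library 2. In the length and GC fit it was 0.54 (adjusted p = 0.0774). EIF5, whose product triggers GTP hydrolysis by eIF2 once the start codon is found, had 323.9, 468.0 and 340.0 CPM in overexpression libraries, against 503.5, 482.2 and 502.1 CPM in control libraries. It was lower in every overexpression library, but the difference of -0.39 ± 0.17 SE did not pass (adjusted p = 0.131). EIF5B, which joins the large subunit, varied most of this role between overexpression libraries: 675.1, 282.2 and 530.2 CPM in overexpression libraries, against 396.7, 428.3 and 385.5 CPM in control libraries.

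The core of eIF2 and eIF2B showed no call. Its 3 subunit genes had log2 fold changes of -0.04 (EIF2S1, the alpha subunit that stress kinases phosphorylate), 0.39 (EIF2S2, beta) and -0.23 (EIF2S3, gamma), with adjusted p of 0.857, 0.131 and 0.338 in the edgeR test. EIF2S2 was the most abundant gene of this role per length, at 348.7 ± 60.8 FPKM in overexpression libraries and 292.1 ± 33.8 FPKM in control libraries (SD, n = 3 each). Its counts were 1105, 828.4 and 869.2 CPM in overexpression libraries, against 761.9, 770.9 and 607.4 CPM in control libraries, with no overlap. The 5 genes of eIF2B, which reloads eIF2 with GTP, all had fold changes above 0, from 0.12 for EIF2B5 to 0.55 for EIF2B2, and none passed. The member of this role that fell, EIF2S3B, had 3 to 26 reads per library, which stand at 0.185, 0.281 and 0.515 CPM in overexpression libraries, against 1.12, 0.877 and 1.23 CPM in control libraries. Its log2 fold change of -1.67 ± 0.45 SE (edgeR adjusted p = 0.0341; -1.42 and adjusted p = 0.0746 without overexpression library 1; -1.71 and adjusted p = 0.0761 in the length and GC fit) is uncertain, because reads of its near copy EIF2S3 could be split between them.

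Of the 14 eIF3 genes, 4 rose, 1 fell and 9 did not pass. eIF3 is the scaffold that holds the small subunit, the other initiation factors and the mRNA together. EIF3K, a peripheral subunit and the shortest of the 62 genes at 0.772 kb, had 257.4, 238.6 and 192.4 CPM in overexpression libraries, against 106.3, 126.9 and 105.5 CPM in control libraries. The groups did not overlap, and the log2 fold change of 1.02 ± 0.17 SE (edgeR adjusted p = 0.0114) ranged from 0.93 to 1.13 over the leave-outs; it was 0.93 without overexpression library 1 (adjusted p = 0.0242). In the length and GC fit EIF3K stood at 0.45 (adjusted p = 0.197). EIF3I, an inner subunit built as a ring of repeats, had 552.7, 803.8 and 522.7 CPM in overexpression libraries, against 375.0, 371.8 and 417.5 CPM in control libraries. Overexpression library 2 was the highest, and the value of 0.69 ± 0.19 SE (edgeR adjusted p = 0.0346) was 0.77 without library 1 and 0.46 without library 2. The length and GC fit gave 0.27 (adjusted p = 0.33).

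EIF3F rose in both fits. Its product is an MPN-domain subunit that forms a module of eIF3 with EIF3H and EIF3M. Counts were 274.5, 301.9 and 255.9 CPM in overexpression libraries, against 178.2, 164.7 and 173.1 CPM in control libraries. The spread within each group was small beside the gap, with a log2 fold change of 0.69 ± 0.14 SE (edgeR adjusted p = 0.0159) and 0.70 without overexpression library 1 (adjusted p = 0.0298). In the length and GC fit the value was 1.36 (adjusted p = 0.0387). That fit uses the deposited length of 6.92 kb, longer than that of any other factor that rose. EIF3H and EIF3M, of 3.96 and 5.05 kb, passed in that fit but not without an offset. They had log2 fold changes of 0.69 and 0.94 there (adjusted p = 0.047 and 0.0458), and 0.20 and 0.29 without an offset (adjusted p = 0.396 and 0.202). The values of that fit depend on these lengths, which are those behind the FPKM values. Whether the transcripts expressed here were that long was not tested. EIF3M was 302.5, 287.0 and 266.5 CPM in overexpression libraries, against 258.8, 240.0 and 201.5 CPM in control libraries, with no overlap. EIF3H was 362.2, 291.5 and 315.5 CPM in overexpression libraries, against 312.0, 287.9 and 245.8 CPM in control libraries, and here the groups overlapped.

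EIF3G, the RNA-binding subunit next to EIF3I, had 155.6, 175.7 and 141.0 CPM in overexpression libraries, against 113.1, 104.6 and 86.0 CPM in control libraries. The groups were apart, at 0.64 ± 0.17 SE (edgeR adjusted p = 0.032; adjusted p = 0.0503 without overexpression library 1), but the length and GC fit gave -0.14. EIF3A, the largest subunit and the core around which the others assemble, fell. It had 279.2, 221.0 and 274.8 CPM in overexpression libraries, against 390.7, 488.6 and 343.4 CPM in control libraries, a log2 fold change of -0.66 ± 0.18 SE (edgeR adjusted p = 0.0344; -0.72 without overexpression library 1). In the length and GC fit it was -0.12 (adjusted p = 0.668). Its deposited length is 6.66 kb. EIF3C and its near-identical copy EIF3CL averaged 4.66 and 0.553 FPKM, and reads shared by the copies make both values uncertain, as does an overlapping gene on the same strand for EIF3L, which covers 41.1% of its exonic bases. EIF3L was 25.6, 82.8 and 46.7 CPM in overexpression libraries, against 87.6, 87.4 and 67.1 CPM in control libraries.

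**Figure D3:**
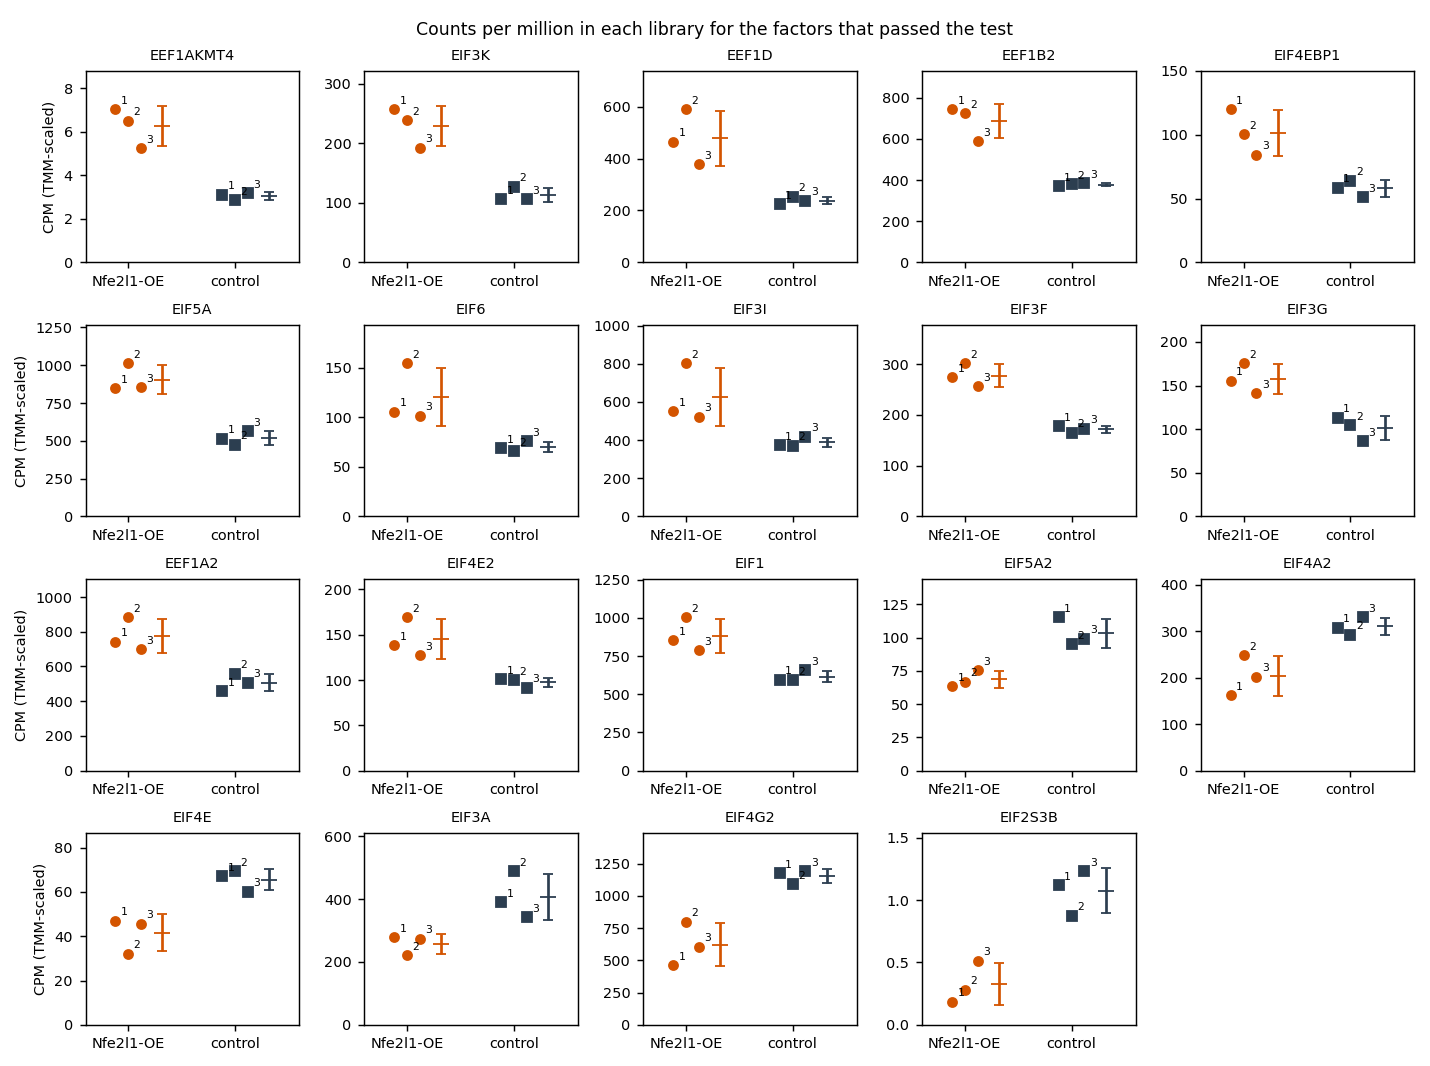
TMM-scaled CPM in each library for the 19 factors that passed the test, with overexpression libraries (circles) left of control libraries (squares), library numbers beside the points, and bars for mean and SD (n = 3 each). The groups do not overlap in any of these panels. Overexpression library 2 is the highest for EEF1A2, EEF1D, EIF1, EIF3F, EIF3G, EIF3I, EIF4E2, EIF5A and EIF6, most of the factors that rose.

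Within eIF4, 1 gene rose, 3 fell and 7 did not pass, and the median log2 fold change of the 11 was -0.38. EIF4G2, also known as DAP5, is a scaffold without the eIF4E-binding part of eIF4G1 that serves initiation on selected mRNAs. It had 461.8, 799.4 and 605.0 CPM in overexpression libraries, against 1177, 1091 and 1189 CPM in control libraries. The control libraries lay close together and the overexpression libraries were spread below them, with library 1 lowest (-0.89 ± 0.20 SE, edgeR adjusted p = 0.02; -0.72 and adjusted p = 0.0324 without library 1). EIF4E, the cap-binding protein, had 47.0, 32.1 and 45.8 CPM in overexpression libraries, against 67.0, 69.3 and 60.1 CPM in control libraries. All overexpression libraries were lower, library 2 the lowest, at -0.65 ± 0.19 SE (edgeR adjusted p = 0.044; -0.75 without library 1). EIF4A2, a helicase paralogue, had 161.6, 248.4 and 201.7 CPM in overexpression libraries, against 307.7, 292.4 and 329.8 CPM in control libraries. Its groups did not overlap (-0.60 ± 0.18 SE, edgeR adjusted p = 0.0455), but without overexpression library 1 the value was -0.46 (adjusted p = 0.0936).

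EIF4E2, a cap-binding relative of eIF4E that does not bind eIF4G1 and takes part in repression, was the eIF4 gene that rose. It had 138.6, 169.3 and 127.2 CPM in overexpression libraries, against 100.7, 100.1 and 91.7 CPM in control libraries, at 0.57 ± 0.16 SE (edgeR adjusted p = 0.039; 0.60 and adjusted p = 0.0538 without overexpression library 1). In the length and GC fit none of these 4 passed: EIF4G2 stood at -0.40, EIF4E at -0.37, EIF4A2 at -0.42 and EIF4E2 at 0.23. When only length was offset, EIF4A2 still passed, at -0.869 (edgeR adjusted p = 0.026), and the others did not. EIF4G1, the main scaffold, was 351.7, 744.5 and 479.7 CPM in overexpression libraries, against 657.2, 738.0 and 648.9 CPM in control libraries. Overexpression library 2 matched the control libraries while the other two were lower, and the difference did not pass (-0.38 ± 0.25 SE, adjusted p = 0.307). EIF4A1 had 7 to 36 reads per library, which stand at 0.43, 1.26 and 0.80 CPM in overexpression libraries, against 1.55, 1.27 and 1.71 CPM in control libraries. Of its annotated exonic bases 48.6% are shared with other genes on the same strand, so its low value cannot be read as the level of its mRNA. Among factors that passed the test, such shared bases come to 26.3% for EEF1AKMT4, 17.4% for EIF6, 16.4% for EEF1B2 and 10.5% for EIF4A2. EIF4G3, another scaffold, had 64.2, 20.6 and 33.3 CPM in overexpression libraries, against 51.8, 84.6 and 34.8 CPM in control libraries, wide overlap in a gene of 5.76 kb.

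The promoters of EIF4E and EIF3K are shown because these genes moved in opposite directions and both hold the E-box letters CACGTG, a sequence bound by MYC and other basic helix-loop-helix factors, here in capitals. Each run covers 250 bases before the annotated start and 15 from it, 5′ to 3′ on the gene's strand, in GRCh38.p14.
EIF4E, chr4:98929119-98929383, minus strand: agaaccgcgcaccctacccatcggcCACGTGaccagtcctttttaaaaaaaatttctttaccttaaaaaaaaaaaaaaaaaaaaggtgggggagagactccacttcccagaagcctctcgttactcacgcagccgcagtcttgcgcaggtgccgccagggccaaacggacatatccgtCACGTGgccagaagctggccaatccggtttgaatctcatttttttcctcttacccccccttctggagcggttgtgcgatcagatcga
EIF3K, chr19:38618938-38619202, plus strand: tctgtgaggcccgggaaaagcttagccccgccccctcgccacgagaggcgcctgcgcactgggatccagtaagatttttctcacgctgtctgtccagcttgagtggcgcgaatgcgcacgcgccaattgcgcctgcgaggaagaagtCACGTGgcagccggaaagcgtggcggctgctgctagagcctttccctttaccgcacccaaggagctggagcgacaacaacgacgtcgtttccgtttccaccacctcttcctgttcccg
The matches begin 225 and 72 bases before the start of EIF4E and 103 bases before that of EIF3K.

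Over windows of 300 bases (250 before to 50 after the start), CACGTG, which reads the same on both strands, occurred in 12 of the 48 matched factors (25.0%), against 8.78% of all 27305 genes. Of those 12, 3 rose and 2 fell, and of the 36 without CACGTG 6 rose and 3 fell. The median log2 fold changes were 0.09 and 0.15. The letters TGACNNNGC, the core of the antioxidant response element to which NFE2L1 and its relatives bind with small Maf proteins, occurred on either strand in 13 factors (27.1%), against 16.1% of all genes. Of these 13, EEF1AKMT4, EIF3K and EIF5A rose and EIF5A2 fell, and their median log2 fold change was -0.17. In the 35 without the letters the median was 0.20, and 6 rose and 4 fell. TGATGCAA, an ATF4 composite element, was in none of the 65 start windows of the factors and in 0.866% of all start windows. At so low a share, its absence from these windows decides nothing. The 14 factors without a matched start were not searched, among them EIF4EBP1, EEF1A2, EEF1D, EIF3G and EIF3A, which passed the test. The genes compared with were not limited to expressed or protein-coding ones, as the factors were, so these shares are not of like sets. A match describes the letters of the window and no more.

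Among the proteins that bind eIF4E, EIF4EBP1 rose. It encodes 4E-BP1, which holds eIF4E away from eIF4G until mTORC1 phosphorylates it, and it is also a known target of ATF4. It had 120.2, 100.5 and 84.3 CPM in overexpression libraries, against 58.5, 64.0 and 51.2 CPM in control libraries. The lowest overexpression library was above the highest control library, at 0.81 ± 0.18 SE (edgeR adjusted p = 0.0206; 0.67 and adjusted p = 0.0426 without overexpression library 1). At 0.827 kb it is short, and in the length and GC fit its value was -0.18 (adjusted p = 0.719). EIF4EBP2, its paralogue of 7.49 kb, was 115.9, 126.6 and 121.7 CPM in overexpression libraries, against 139.1, 131.7 and 137.6 CPM in control libraries, lower in each without passing (-0.17 ± 0.14 SE, adjusted p = 0.417). EIF4ENIF1, the 4E-T protein that carries eIF4E to the nucleus and to P-bodies, had a log2 fold change of -0.35 (adjusted p = 0.226).

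eIF5A, the only known protein with the amino acid hypusine, eases peptide bond formation at difficult stretches such as runs of proline. EIF5A had 849.1, 1014 and 853.1 CPM in overexpression libraries, against 515.0, 473.5 and 565.4 CPM in control libraries. The groups were far apart, at 0.81 ± 0.15 SE (edgeR adjusted p = 0.0129; 0.85 and adjusted p = 0.0242 without overexpression library 1). Its paralogue EIF5A2 fell, with 63.4, 67.0 and 75.5 CPM in overexpression libraries, against 115.3, 94.9 and 99.2 CPM in control libraries (-0.59 ± 0.16 SE, edgeR adjusted p = 0.0344; -0.54 and adjusted p = 0.0745 without library 1). The deposited lengths differ, 1.26 kb for EIF5A and 5.54 kb for EIF5A2, and in the length and GC fit the values were 0.18 and 0.11, neither of which passed. EIF5AL1, an EIF5A copy with 23 to 46 reads per library, is uncertain for the same reason as EIF2S3B. EIF6, which keeps the large subunit from joining too early, rose, with 105.8, 154.8 and 101.6 CPM in overexpression libraries, against 68.6, 65.7 and 76.0 CPM in control libraries. Library 2 was highest (0.78 ± 0.20 SE, edgeR adjusted p = 0.0276; 0.87 without library 1), and the length and GC fit gave 0.07.

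EEF1A1 and EEF1B2 had the 2 highest mean FPKM of the set. EEF1A1 averaged 2217 ± 71.0 FPKM in overexpression libraries and 2290 ± 334 FPKM in control libraries (SD, n = 3 each), and EEF1B2 averaged 808.4 FPKM in overexpression libraries and 490.4 FPKM in control libraries. The counts of EEF1A1, 8256, 8721 and 7580 CPM in overexpression libraries, against 6649, 8891 and 7488 CPM in control libraries, overlapped (log2 fold change 0.09 ± 0.15 SE, edgeR adjusted p = 0.683). EEF1A1 has many processed pseudogenes, to which reads of its mRNA can be lost in counting. EEF2 was 1065, 1406 and 995.0 CPM in overexpression libraries, against 1096, 988.6 and 899.0 CPM in control libraries, and also overlapped (0.22 ± 0.17 SE, adjusted p = 0.388). The 2 measured genes of the exchange factor eEF1B, by contrast, both rose. EEF1B2, its catalytic alpha subunit, had 745.6, 726.1 and 590.1 CPM in overexpression libraries, against 370.2, 380.6 and 383.7 CPM in control libraries (0.86 ± 0.14 SE, edgeR adjusted p = 0.0116; 0.80 and adjusted p = 0.0247 without overexpression library 1). EEF1D, the delta subunit, had 464.1, 591.0 and 379.0 CPM in overexpression libraries, against 223.2, 252.2 and 237.5 CPM in control libraries (1.01 ± 0.18 SE, edgeR adjusted p = 0.0129; 1.03 and adjusted p = 0.0242 without library 1).

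In the length and GC fit EEF1B2 and EEF1D stayed above 0, at 0.44 (adjusted p = 0.122) and 0.53 (adjusted p = 0.0974). When only length was offset, EEF1D still passed, at 0.873 (edgeR adjusted p = 0.0279). EEF1B2, at 0.362, did not (adjusted p = 0.134). EEF1A2, the eEF1A form of muscle and brain in the body, averaged 415.0 ± 34.0 FPKM in overexpression libraries and 299.5 ± 29.8 FPKM in control libraries, and thus was well expressed in this line. Its counts of 742.6, 883.6 and 698.6 CPM in overexpression libraries, against 457.5, 557.3 and 505.5 CPM in control libraries, did not overlap (0.61 ± 0.15 SE, edgeR adjusted p = 0.0273; 0.64 without library 1), but the length and GC fit gave -0.14. EEF1E1, a small factor of the aminoacyl-tRNA synthetase complex, was 60.0, 29.3 and 43.1 CPM in overexpression libraries, against 27.7, 29.3 and 29.5 CPM in control libraries. Library 2 sat with the control libraries and the difference did not pass (adjusted p = 0.118).

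Of the enzymes that modify elongation factors, EEF1AKMT4, a lysine methyltransferase of eEF1A, rose. It had 7.05, 6.51 and 5.25 CPM in overexpression libraries, against 3.10, 2.85 and 3.17 CPM in control libraries (1.04 ± 0.25 SE, edgeR adjusted p = 0.0244; 0.95 and adjusted p = 0.0518 without overexpression library 1; 0.32 and adjusted p = 0.529 in the length and GC fit). Its 65 to 139 reads per library and the readthrough gene that covers 26.3% of its exonic bases limit that value. EEF2K, the kinase that stops eEF2, had 18.9, 14.6 and 14.6 CPM in overexpression libraries, against 21.2, 19.6 and 14.4 CPM in control libraries, with overlap (-0.20 ± 0.22 SE, adjusted p = 0.553). The most abundant gene of this role, EEF1AKNMT, which methylates the N-terminus and a lysine of eEF1A, was 92.0, 144.9 and 110.0 CPM in overexpression libraries, against 77.7, 94.1 and 106.4 CPM in control libraries, also with overlap (adjusted p = 0.297). The other 4 enzymes did not pass, with log2 fold changes from 0.07 to 0.66.

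Per length, the order of mean FPKM over the 6 libraries began with EEF1A1 (2253), EEF1B2 (649.4), EIF5A (555.2), EIF3I (395.8), EEF1A2 (357.2), EEF2 (338.2), EIF2S2 (320.4) and EIF1 (317.0). From EIF3I on the order differed between the groups: EEF2 averaged 346.7 FPKM and EIF1 358.5 FPKM in overexpression libraries, whereas in control libraries EEF2, at 329.7 FPKM, stood above EIF3I, at 322.2 FPKM. That part of the order is therefore not settled. At the low end stood EIF4E3, at 0.190 ± 0.042 FPKM in overexpression libraries and 0.189 ± 0.035 FPKM in control libraries (SD, n = 3 each). Among the eIF4 genes, the mean level per length of EIF4G1 was 111.9 FPKM, that of EIF4G2 236.8 FPKM and that of EIF4E 22.3 FPKM.

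Ratios of 2 factors within a library do not depend on how libraries are scaled, and 10 pairs of paralogues or partners were compared by an exact two-sided permutation test on log2 ratios of FPKM. With 3 libraries against 3 there are 20 assignments and p cannot go below 0.1. The ratios after the length and GC offset were added after the data were seen. The ratio of EIF4EBP1 to EIF4E was 7.50, 9.19 and 5.40 in overexpression libraries, against 2.56, 2.71 and 2.50 in control libraries. The difference of 1.47 in log2 had the smallest p possible (exact p = 0.1, adjusted p = 0.167), with the length offset it was 1.08, and with the length and GC offset it was 0.19 (exact p = 0.6). EIF5A over EIF5A2 was 58.7, 66.3 and 49.4 in overexpression libraries, against 19.6, 21.9 and 24.9 in control libraries, 1.39 in log2, 0.60 with the length offset and 0.10 with the length and GC offset (exact p = 0.7). EIF3K over EIF3A, a peripheral over a core subunit of the same complex, was 7.95, 9.31 and 6.04 in overexpression libraries, against 2.35, 2.24 and 2.65 in control libraries, 1.67 in log2, 0.74 with the length offset and 0.57 with the length and GC offset (exact p = 0.1).

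The ratio of EIF1 to EIF5, factors with opposed roles at the start codon, was 6.45, 5.24 and 5.67 in overexpression libraries, against 2.88, 3.00 and 3.19 in control libraries. It differed by 0.93 in log2, by 0.43 with the length offset and by 0.40 with the length and GC offset (exact p = 0.3). EIF4EBP1 over EIF4EBP2 differed by 0.97, with no overlap (9.40, 7.19 and 6.27 in overexpression libraries, against 3.81, 4.40 and 3.37 in control libraries), but by 0.01 with the length offset and by -0.56 with the length and GC offset. EIF4G1 over EIF4G2 was 0.535, 0.654 and 0.557 in overexpression libraries, against 0.392, 0.475 and 0.383 in control libraries, and this difference of 0.48 became 0.66 with the length offset and 0.01 with the length and GC offset (exact p = 1.0). Without an offset these 6 ratios each had exact p = 0.1 (adjusted p = 0.167). In all of them but EIF4G1 over EIF4G2, every overexpression library lay above every control library for the first factor and below for the second. Their separation and exact p therefore follow from the single factors and add no further support. The other 4 ratios overlapped between the groups: EEF2 over EEF2K differed by 0.40 (exact p = 0.2), EIF4A1 over EIF4A2 by -0.36 (exact p = 0.3), EIF4G1 over EIF4G3 by 0.16 (exact p = 0.9) and EEF1A1 over EEF2 by -0.10 (exact p = 0.6). With the length and GC offset these 4 stood at -0.20, -0.76, -0.25 and 0.41, so that 3 of them changed sign.

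**Figure D4:**
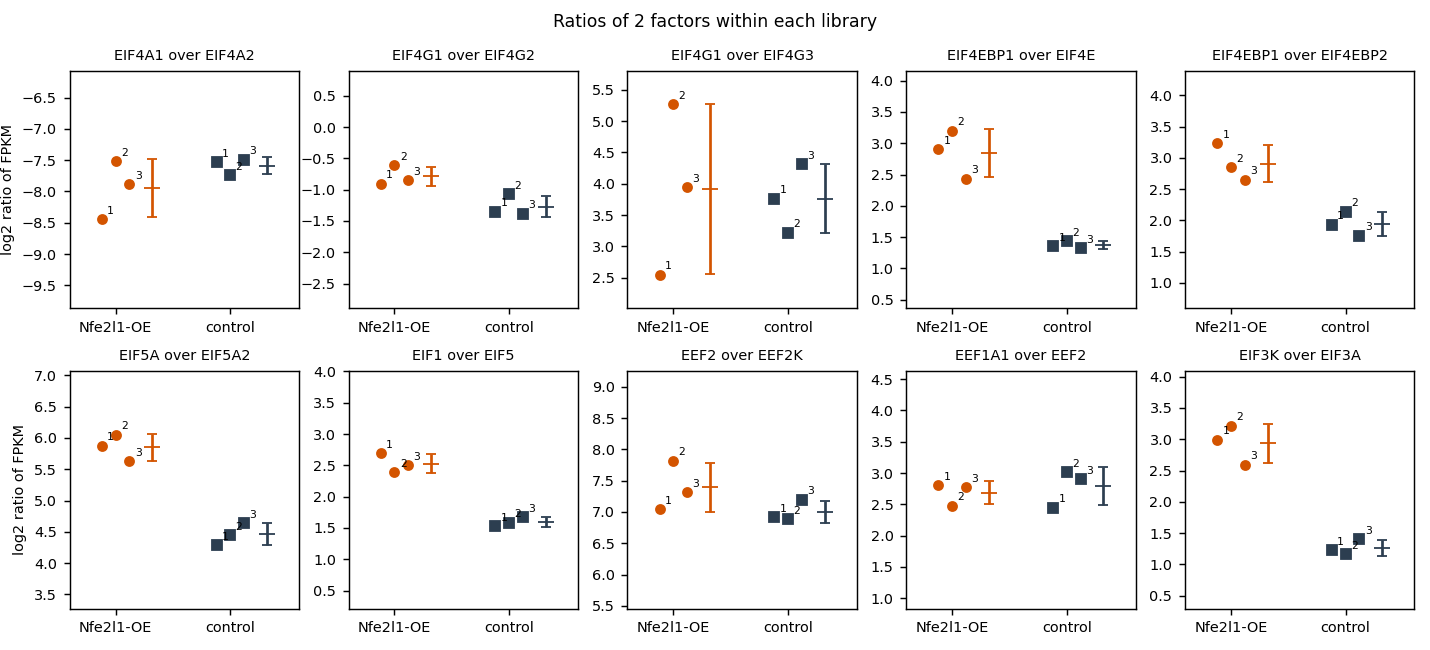
Log2 ratios of FPKM of 2 factors within each library, with overexpression libraries (circles) left of control libraries (squares), library numbers beside the points, and bars for mean and SD (n = 3 each); all panels span the same number of log2 units. In 6 panels the groups are apart, and the gap is widest for EIF3K over EIF3A, at 1.67. For all of these but EIF4G1 over EIF4G2 the separation follows from the single factors, whose groups were apart in opposite directions.

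The genes around these factors were read from lists of the same pathway, with 57 genes tested in 6 lists, of which 6 rose and 7 fell (10.5% and 12.3%, beside 9.62% and 9.49% of all genes). Among 9 eIF2 alpha kinases and phosphatase genes, 3 fell and 1 rose. EIF2AK3, the endoplasmic reticulum stress kinase PERK, had 13.5, 13.4 and 17.2 CPM in overexpression libraries, against 36.3, 36.2 and 28.7 CPM in control libraries. It fell by 1.20 on the log2 scale (SE 0.20, edgeR adjusted p = 0.0116; -1.14 without overexpression library 1), and it was the only companion gene that also passed in the length and GC fit (-0.81, adjusted p = 0.0494). EIF2AK2, the double-stranded RNA kinase PKR, fell to 74.7, 53.4 and 82.2 CPM in overexpression libraries, against 129.9, 141.8 and 109.8 CPM in control libraries (-0.86, edgeR adjusted p = 0.0221; -0.91 without overexpression library 1), and stood at -0.13 in the length and GC fit. PPP1R15B, the constitutive partner of the eIF2 alpha phosphatase, fell (-0.75, edgeR adjusted p = 0.0185; -0.74 without overexpression library 1), whereas PPP1CA, a catalytic subunit, rose (0.84, adjusted p = 0.0156; 0.89 without that library). They stood at -0.29 and 0.11 in the length and GC fit. PPP1R15A, the stress-induced partner GADD34, was 103.2, 228.7 and 142.9 CPM in overexpression libraries, against 139.4, 179.7 and 186.1 CPM in control libraries, and did not pass (adjusted p = 0.842).

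Of 15 genes of mTORC1 and MNK control, MLST8, a core mTORC1 subunit, rose by 0.70 (edgeR adjusted p = 0.0402) and TBC1D7, a subunit of the TSC complex, by 0.64 (adjusted p = 0.0492), while RPS6KB1, the S6 kinase, fell (-0.68, adjusted p = 0.0468). None of these 3 passed without overexpression library 1 (0.66, 0.60 and -0.62), and in the length and GC fit they stood at -0.03, 0.59 and -0.04. Of 8 termination and recycling genes, ABCE1, the ribosome recycling ATPase, and HBS1L, the rescue factor, fell (-0.70, edgeR adjusted p = 0.0175, and -0.74, adjusted p = 0.0204). They were -0.64 and -0.66 without overexpression library 1, and -0.16 and 0.03 in the length and GC fit. Of 9 genes of hypusine and diphthamide synthesis, DOHH, which completes hypusine on eIF5A, rose by 1.06 (adjusted p = 0.0427). It had 19.5, 42.1 and 21.7 CPM in overexpression libraries, against 11.2, 13.9 and 14.8 CPM in control libraries, and library 2 was the highest. The value was 1.26 without library 1, 0.63 without library 2 and 0.15 in the length and GC fit. Of 10 mitochondrial translation genes tested, TUFM, the mitochondrial counterpart of eEF1A, rose by 0.62 and MRPL58 by 0.73, and GFM1, a mitochondrial elongation factor, fell (-0.80), with edgeR adjusted p of 0.0322, 0.0258 and 0.0145. Without overexpression library 1 these were 0.67, 0.81 and -0.76, and in the length and GC fit 0.16, 0.22 and -0.17. Of 6 poly(A)-binding genes none passed, and PABPC1 was 2500, 2231 and 1921 CPM in overexpression libraries, against 2011, 2175 and 1584 CPM in control libraries. The 7 tested factors with TOP mRNAs known from earlier work, read as a list, held 3 that rose (EEF1B2, EEF1D and EIF3F) and none that fell, with a median of 0.22 beside 0.22 over all 62 factors.

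The authors' deposited table gives its own comparison, by which 14 of the 62 factors were higher and 6 lower in the overexpression libraries at an adjusted p under 0.05, beside 1760 higher and 2074 lower among its 18969 genes.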

How the data were processed

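The 6 messenger RNA libraries of cisplatin-treated HK-2 cells, 3 labelled Nfe2l1 overexpression and 3 labelled wild type, were made with a stranded mRNA kit, per the labels' protocols. Reads were trimmed with Trimmomatic 0.36 and GRCh38 was the build, per the submitters' processing notes; neither source names an aligner or counter. Raw counts per gene and FPKM were deposited by the authors for the same 18969 genes, together with the log2 fold change and p-value of the authors' own comparison, per the file headers. The smallest sum of counts over the 6 libraries of a listed gene is 10.

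Counts were tested here with edgeR 4.0.16 in R 4.3.3 (filterByExpr with a minimum count of 10 and total of 15, TMM, quasi-likelihood test, Benjamini-Hochberg over 15046 genes, threshold 0.05; biological coefficient of variation 0.249). The SE is the absolute log2 fold change over the root of F. CPM values are TMM-scaled and unlogged. Offsets came from a smooth per library on gene length, or on length and GC content of GENCODE 29 transcripts (mgcv 1.9.3). Alternatives used DESeq2 1.42.0, limma 3.58.1 on log2 of FPKM plus 1 or 0.1, and leave-outs; ratios with the length and GC offset were added after the data were seen. Exonic overlap was counted on the same strand in GENCODE 29, and sequences are from RefSeq.

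Every factor could be named; values per library are given for those past the threshold, for the most abundant of each role and for the pairs of the ratios, and companion genes are named where they passed. EIF5B, EIF3H, EIF3L, EIF3M, EEF1E1, PPP1R15A and PABPC1 were given per library after their values were seen. Members and lists were chosen with earlier results of these data known. EEF1G, EIF1AY, EIF4E1B and EIF4EBP3 were not analysed here.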

Additional observations from a re-analysis of the deposited data

How the results depend on the processing

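The 19 factors that passed all kept their call with DESeq2 size factors and in the DESeq2 Wald test (14 higher, 6 lower), and 17 did with no filter on low counts. The Wald test called 22.6% of the factors higher and 9.68% lower, beside 9.35% and 11.1% of all genes. With the length offset alone 3 factors were higher and 2 lower (4.84% and 3.23%, beside 3.36% and 3.28% of all genes), and of the companion genes 2 and 1. With the length and GC offset these counts were 3 and 0, and 0 and 1, and 4 of the factors that had passed changed sign: EEF1A2 to -0.141, EIF3G to -0.138, EIF4EBP1 to -0.183 and EIF5A2 to 0.112. So did 9 that had not passed. The factors called higher with the length offset alone were EEF1D (0.873), EIF3F (1.147) and EIF3M (0.617). Those called lower were EIF4A2 (-0.869) and EIF2S3B (-1.996). Both offsets take from every library its own trend with length, or with length and GC content, by construction, including any part that differs between the groups.

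By limma on log2(FPKM + 1) 12 of 57 factors tested were higher and 7 lower (21.1% and 12.3%, beside 9.64% and 16.3% of all genes). Of 53 companion genes tested 3 were higher and 10 lower. With 0.1 added in place of 1, 12 factors were higher and 6 lower (21.1% and 10.5%, beside 9.36% and 15.4% of all genes), with 3 and 11 companion genes. With no filter on low values 9 of 62 factors were higher and 7 lower (14.5% and 11.3%, beside 4.97% and 8.07% of all genes), and 4 that had passed no longer did. Of 58 companion genes 2 were then higher and 9 lower. FPKM summed to 605615 to 626091 in overexpression libraries and 484861 to 519524 in control libraries. Rescaled to a common sum, the median of all genes lay at -0.348, where of 57 factors tested 5 were higher and 18 lower (8.77% and 31.6%, beside 4.28% and 33.6% of all genes), 0 and 23 companion genes were, and EIF3J stood at -0.423. The median of the factors was then -0.237, above that of all genes.

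The replicate block gave 0 factors higher and 0 lower, and 0 and 0 companion genes, as it did for the whole table (edgeR; 22 factors and 4413 of all genes had an unadjusted p under 0.05). Libraries with the same number deviated from their group means with correlations of 0.006, -0.512 and 0.088, and not every library correlated best with its own number. With 3 libraries per group such correlations cannot settle whether the numbers pair the libraries.

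Leaving out each library in turn, the factors called ranged from 0 to 15 higher and from 0 to 9 lower, and companion genes from 0 to 8 and from 0 to 9. The lowest counts came without control library 1 or 2, and the highest without overexpression library 2. No factor that had passed changed direction in any of these fits. Of the ratios, EIF4G1 over EIF4G3 ranged from -0.520 to 0.841 (-0.118 without control library 2) and EEF1A1 over EEF2 from -0.274 to 0.010. EIF4A1 over EIF4A2 was 0.355 with 1 added to each FPKM, and EEF2 over EEF2K was -0.003 with the length offset. With the length and GC offset, chosen for the ratios after seeing the data, EIF4G1 over EIF4G3 was -0.249, EIF4EBP1 over EIF4EBP2 -0.559, EEF2 over EEF2K -0.203 and EEF1A1 over EEF2 0.407. The other 5 ratios kept their direction in every alternative run. Of 977 fits of single factors, 4 changed the sign of a factor that had passed and 80 that of one that had not. The cause of these changes was not tested. Counting depth limits EIF2S3B, EIF4A1, EIF5AL1, EIF3CL, EIF4E3 and EEF1AKMT4.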
